A study of Mus musculus with 64 samples.

Results

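The effect of losing Morc1 was compared between 2 stages of the male germ line, E16.5 (days of embryonic development) and P10.5 (days after birth). The members are the 11 RNA-seq libraries of sorted germ cells at these stages, of 64 samples in the series. At E16.5 there were 2 Morc1 tg/+ and 2 Morc1 tg/tg libraries, and at P10.5 there were 4 tg/+ and 3 tg/tg libraries, each from 1 mouse. The tg allele is a tyrosinase transgene inserted in Morc1 on the FVB/N strain, which removed exons near the start of the gene, so that reads on the remaining exons can still be counted in tg/tg cells. All controls carried 1 tg allele, and no wild-type germ cells were sorted. At E16.5 cells were taken as GFP-positive cells of the Oct4-IRES-eGfp reporter on a mixed background, and at P10.5 as cells low in side scatter, high in EPCAM and negative for MHC class I. Stage, sort and genetic background therefore cannot be told apart in a difference between the stages. Germ cell identity genes, among them the markers of the sorted type, summed to 926 to 1210 RPKM at E16.5 and 422 to 567 at P10.5, and were not absent from any library.

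MORC1 is a nuclear ATPase of the MORC family and is known for silencing transposons in male germ cells. At E16.5 male germ cells are prospermatogonia, which do not divide and are regaining DNA methylation. At P10.5 the testis holds undifferentiated and differentiating spermatogonia and the first cells entering meiosis, a step that Morc1 mutant males do not complete.

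The libraries held 7474627 to 14918478 reads on genes, and 16917 genes passed a filter on low counts. Values per library are RPKM, reads scaled to gene length and library depth, as deposited. Fold changes are log2 of tg/tg over tg/+ from edgeR's quasi-likelihood test on the counts, with a standard error (SE), and a call is an adjusted p (Benjamini-Hochberg over all genes tested) under 0.05. The genotype by stage interaction is the fold change at P10.5 minus that at E16.5. On a multidimensional scaling plot of all 11 libraries the first dimension separated the stages and the second the genotypes, by less at E16.5. The second dimension was -0.0967 and -0.169 in tg/+ and 0.0687 and 0.14 in tg/tg at E16.5. At P10.5 it lay from -1.151 to -0.598 in tg/+ and from 0.957 to 1.094 in tg/tg. Each p-value sets a difference between groups against a spread between single mice that was estimated over all 4 groups in 1 fit.

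At E16.5 63 genes were called, 0.372% of those tested, with 49 higher (0.29%) and 14 lower (0.0828%) in tg/tg. At P10.5 1478 genes were called, 8.74%, with 798 higher (4.72%) and 680 lower (4.02%). The interaction was called for 290 genes, 1.71%, with 151 higher (0.893%) and 139 lower (0.822%). The stages differed in precision, with a median SE of 0.266 at E16.5 and 0.195 at P10.5, so a gene called at P10.5 alone was not counted as changed between stages without a called interaction. The effect appeared (called at P10.5 and in the interaction, not at E16.5) for 201 genes, of which 111 were higher and 90 lower in tg/tg at P10.5. It faded (called at E16.5 and in the interaction, not at P10.5) for 20 genes, 15 higher and 5 lower at E16.5. It persisted (called at both stages in 1 direction) for 13 genes, 11 higher and 2 lower, and it reversed for 6. A further 1258 genes were called at P10.5 and 24 at E16.5 without a called interaction, and their effect was not shown to differ between stages. Another 56 genes had a called interaction, 28 higher and 28 lower, with no call at either stage. Just inside the threshold of the interaction lay Tbce with an adjusted p of 0.0497, and just outside it Kat2b with 0.0507.

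These counts depend on which libraries enter the fit, which set its filter, its scaling and its estimate of spread together. When the 9 sorted libraries of E18.5 and P2.5, which are shallower, were added to the edgeR fit, the interaction was called for 9 genes, and 7 of the 201 genes whose effect appeared kept that class. The 9 genes were Col6a3, Neb, Gm1698, 2610005L07Rik, Ctsh, Ky, Akap9, Zfp592 and Rspry1. The tg/tg libraries of E16.5 weighed most among the 11: the interaction was called for 130 genes without replicate 1 and 149 without replicate 2.

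**Figure D1:**
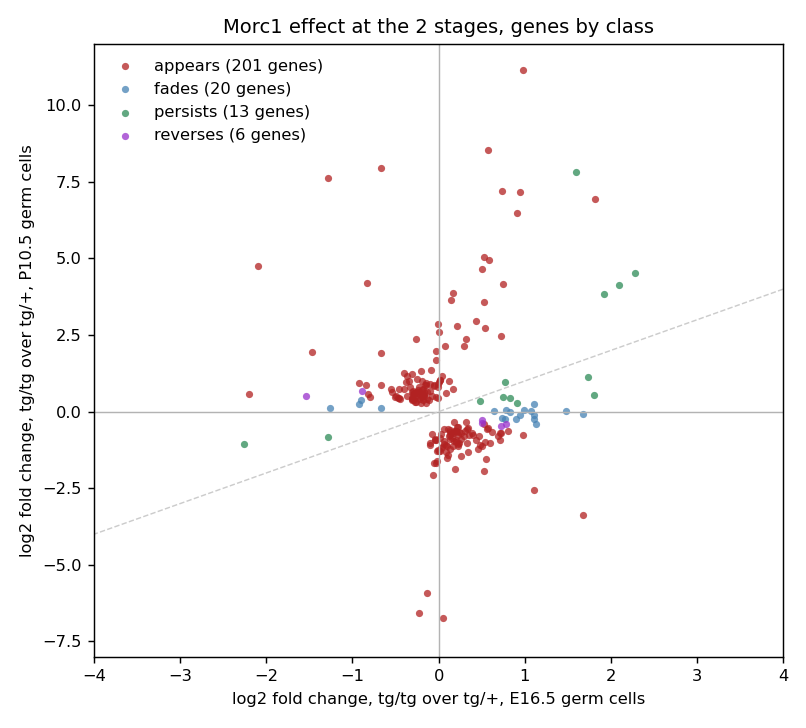
Log2 fold change of tg/tg over tg/+ at E16.5 (x axis) and P10.5 (y axis, on a wider scale) for the 240 genes whose effect appeared (201), faded (20), persisted (13) or reversed (6); each point is 1 gene and the dashed line marks equal effects. Genes whose effect appeared lie near the vertical axis, above and below 0, and those that faded lie near the horizontal axis. At E16.5, 27 of the 111 that appeared higher and 75 of the 90 that appeared lower had a log2 fold change above 0. Over all genes tested this was 8043 of 16917. The genotypes did not overlap at E16.5 for 74 of the 111 and 47 of the 90, beside 6507 of all genes. The classes were chosen through the interaction, which includes the E16.5 values, so these counts are a description.

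Morc1 itself was lower in tg/tg at both stages. At E16.5 its level was 36.1 and 52.9 RPKM in tg/+ and 11.2 and 8.29 in tg/tg. At P10.5 it was 8.15, 10.1, 11.1 and 8.97 RPKM in tg/+ and 4.77, 5.58 and 4.36 in tg/tg. The genotypes did not overlap at either stage, and the tg/+ level at P10.5 was close to the tg/tg level at E16.5. The log2 fold change was -2.26 (SE 0.17) at E16.5 and -1.05 (SE 0.14) at P10.5, with an interaction of 1.21 and an adjusted p of 0.00184 (edgeR). Among all genes tested, the tg/tg libraries all lay above the tg/+ libraries for 18.1% and below them for 20.3% at E16.5, and for 9.98% and 9.69% at P10.5.

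The clearest effects that persisted were those of Cd209c, Slc15a2, Gdpd3 and Clca4. For 3 of them the 250 bases before the RefSeq start (GRCm38.p6) are shown, since these genes were called higher at both stages. CpG dinucleotides, the target of DNA methylation, are in capitals.
Cd209c, chr8:3946864-3947113, minus strand: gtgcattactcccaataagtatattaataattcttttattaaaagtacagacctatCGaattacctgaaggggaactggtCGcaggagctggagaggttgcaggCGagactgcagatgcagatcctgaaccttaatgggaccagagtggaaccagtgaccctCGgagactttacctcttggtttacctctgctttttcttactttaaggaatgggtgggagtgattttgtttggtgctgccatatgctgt
Slc15a2, chr16:36784963-36785212, minus strand: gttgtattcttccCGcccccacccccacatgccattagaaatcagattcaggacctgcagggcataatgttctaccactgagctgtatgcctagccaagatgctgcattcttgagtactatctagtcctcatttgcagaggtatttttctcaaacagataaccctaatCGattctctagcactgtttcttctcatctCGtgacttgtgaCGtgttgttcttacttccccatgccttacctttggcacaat
Gdpd3, chr7:126766164-126766413, plus strand: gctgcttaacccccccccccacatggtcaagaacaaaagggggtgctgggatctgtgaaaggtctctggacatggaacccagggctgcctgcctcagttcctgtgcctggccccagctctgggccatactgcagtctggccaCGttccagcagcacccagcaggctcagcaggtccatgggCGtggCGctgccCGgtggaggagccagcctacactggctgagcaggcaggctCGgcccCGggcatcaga
With the 50 bases after the start included, these windows hold 5, 5 and 7 CpGs. Each count is below the median of the 10 genes with a window that persisted on the higher side and below the median of 19 over all genes with one. The 3 genes are among those 10, and the sequences shown are not taken to stand for their class. No comparison of promoter features between the classes is drawn here, since part of the genes had no RefSeq window. Windows were found for 77.4% of the genes tested and 74.6% of the 240 genes.

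Cd209c, a C-type lectin of the DC-SIGN family, rose at both stages and more at P10.5. Its level at E16.5 was 1.68 and 1.99 RPKM in tg/+ and 7.73 and 6.97 in tg/tg. At P10.5 it was 3.77, 3.1, 3.35 and 1.42 in tg/+ and 40.5, 47.0 and 45.4 in tg/tg. All tg/tg libraries lay above all tg/+ libraries at each stage, and the tg/tg level was higher at P10.5 than at E16.5. The log2 fold change was 1.92 (SE 0.26) at E16.5 and 3.84 (SE 0.17) at P10.5, and the interaction of 1.92 had an adjusted p of 0.00114 (edgeR).

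Slc15a2, a peptide transporter, followed the same course. It stood at 0.992 and 1.02 RPKM in tg/+ and 4.35 and 4.8 in tg/tg at E16.5, and at 0.0908, 0.471, 0.279 and 0.551 in tg/+ and 6.99, 6.24 and 6.52 in tg/tg at P10.5. The log2 fold change was 2.09 (SE 0.32) and then 4.15 (SE 0.27), with an interaction of 2.06 and an adjusted p of 0.00801 (edgeR), which was lost without either tg/tg library of E16.5.

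Clca4, of a family named for calcium-activated chloride channels, and Gdpd3, a glycerophosphodiester phosphodiesterase, had a larger ratio at P10.5 although their level in tg/tg was lower there. Clca4 was at 8.3 and 7.74 RPKM in tg/+ and 29.4 and 22.4 in tg/tg at E16.5, and at 0.736, 0.249 and 0.504 in tg/tg at P10.5. No read fell on Clca4 in the 4 tg/+ libraries at P10.5 against 79 in tg/tg, at least 34.2-fold more (taking 3 counts for the empty group as a floor, for counting error only). Gdpd3 was at 5.15 and 2.83 in tg/+ and 16.4 and 25.4 in tg/tg at E16.5, and at 0.91, 0.0521, 0.175 and 0.251 in tg/+ and 8.5, 8.75 and 8.17 in tg/tg at P10.5. Both levels fell between the stages, and as a ratio the fall was larger in tg/+ than in tg/tg. The interaction of Gdpd3, 2.23 with an adjusted p of 0.0454 (edgeR), was lost in 9 of the 11 fits that left out 1 library.

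The other 7 genes that persisted higher were Pitpnc1, Tmc3, Msl1, Dock1, Fam59b, Parn and Rest. Pitpnc1, a phosphatidylinositol transfer protein, had a smaller effect at P10.5, with a log2 fold change of 1.80 and then 0.55. Msl1, a subunit of a histone acetyltransferase complex, went from 0.91 to 0.30, and for both the interaction was called. Tmc3, of the transmembrane channel-like family, had 1.74 and 1.12, and Parn, a poly(A)-specific ribonuclease, 0.78 and 0.98. Rest, a repressor of neuronal genes, had 0.48 and 0.35. For Tmc3, Parn, Rest, Dock1 and Fam59b the interaction was not called. Elavl3, a neuronal RNA-binding protein, was the only gene beside Morc1 to persist lower, with -1.29 (SE 0.27) and -0.81 (SE 0.19).

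**Figure D2:**
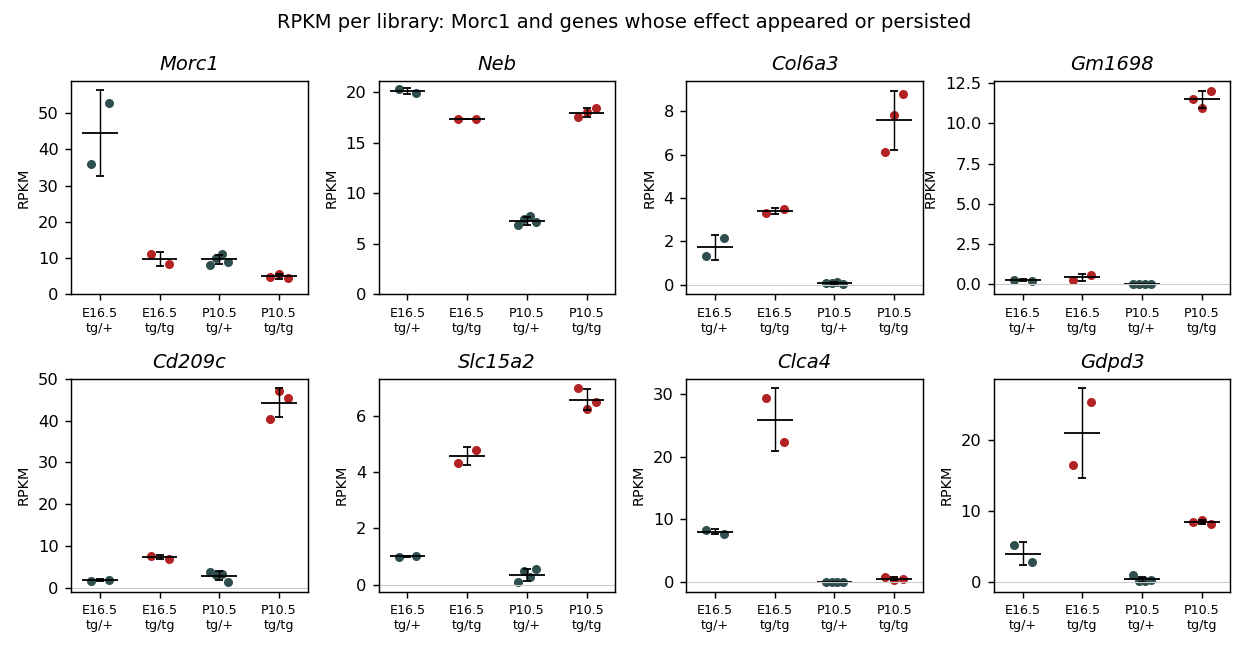
RPKM (y axis, from 0, scale differs between panels) of 8 genes in tg/+ (dark) and tg/tg (red) germ cells at E16.5 and P10.5; points are libraries, bars the mean and SD over 2, 2, 4 and 3 libraries. In all panels but Morc1 the tg/tg libraries lay above the tg/+ libraries at P10.5, and at E16.5 they lay above them for Col6a3, Cd209c, Slc15a2, Clca4 and Gdpd3, below them for Neb and Morc1, and overlapped for Gm1698.

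Among genes whose effect appeared, the 111 that were higher at P10.5 had a median log2 fold change of 0.82 there and -0.20 at E16.5, beside -0.00145 and -0.0171 over all genes tested. These medians describe the classes, which were chosen by the same values. At E16.5 11 of the 111 were under 1 RPKM in both genotypes, beside 3513 of all 16917 genes tested, and nothing is read from this, since a called interaction needs enough reads. In 84 of the 111 the tg/+ level was lower at P10.5 than at E16.5, beside 9777 of all genes and 40 of the 90 that appeared lower. The class was chosen for tg/+ values below tg/tg at P10.5, so this count is a description.

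Neb, which encodes the giant muscle protein nebulin, showed this with little spread. It was at 20.3 and 19.9 RPKM in tg/+ and 17.4 and 17.3 in tg/tg at E16.5. At P10.5 it was at 6.81, 7.42, 7.72 and 7.13 in tg/+ and 17.5, 18.0 and 18.4 in tg/tg. The level fell between stages in tg/+ and was about the same in tg/tg. The log2 fold change was -0.31 (SE 0.10) and then 1.22 (SE 0.08), and the interaction of 1.53 had an adjusted p of 2.11e-08 (edgeR) and was called in every alternative run.

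Col6a3, a collagen VI chain, was at 1.3 and 2.14 RPKM in tg/+ and 3.32 and 3.51 in tg/tg at E16.5. At P10.5 it was at 0.0804, 0.0798, 0.138 and 0.0148 in tg/+ and 6.11, 7.85 and 8.8 in tg/tg. The genotypes did not overlap at either stage, and the E16.5 difference, 0.91 (SE 0.22), had an adjusted p of 0.0655 (edgeR). The P10.5 difference was 6.49 (SE 0.24), and the interaction of 5.57 was also called in every alternative run.

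Poteg and Gm1698 are neighbours on chromosome 8, 109 kb apart (mm9), and both were higher in tg/tg at P10.5. Poteg was at 0.214 and 0.184 RPKM in tg/+ and 0.321 and 0.556 in tg/tg at E16.5. At P10.5 no read fell on it in tg/+, while tg/tg libraries were at 10.6, 6.9 and 11.6, at least 339-fold higher against the floor. Gm1698 was at 0.0521, 0.0238, 0.0267 and 0 in tg/+ and 11.5, 10.9 and 12.0 in tg/tg at P10.5, and at most 0.593 in any E16.5 library. Its interaction was 7.96 with an adjusted p of 6.68e-08 (edgeR).

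Clec2g, a C-type lectin-related gene, had 3 reads over the 4 tg/+ libraries and 392 over the 3 tg/tg libraries at P10.5, a ratio of 170.0 after scaling for depth, with an exact 95% counting interval of 57.6 to 826. BC100530, of the stefin family, had 0 reads in tg/+ and 86 in tg/tg at P10.5, at least 37.2-fold more, with tg/tg libraries at 5.33, 2.52 and 0.843 RPKM. Cd200r2, a CD200 receptor relative, had 0 and 9 reads, at least 3.89-fold more, and its P10.5 levels were all under those of E16.5. At E16.5 it had 167 reads in tg/+ and 27 in tg/tg, with the tg/tg libraries below the tg/+ libraries. That difference, -2.09 (SE 0.82), was not called (adjusted p 0.438, edgeR) but enters its interaction. The interactions of BC100530 and Cd200r2 were lost in 4 and 6 of the 11 fits that left out 1 library.

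Cdkl4, a cyclin-dependent kinase-like gene, rose by 2.48 (SE 0.34) at P10.5, from 0.0422 to 0.452 RPKM in tg/+ to 1.04 to 1.51 in tg/tg. At E16.5 it was at 6.69 and 6.43 in tg/+ and 11.8 and 11.3 in tg/tg, a difference of 0.72 that was not called, and its interaction (adjusted p 0.0433, edgeR) was lost in 8 of the 11 fits that left out 1 library. Tmc2, a mechanotransduction channel subunit, was called at P10.5 with 1.77, but its interaction, 0.82, was not (adjusted p 0.305, edgeR). At E16.5 its mean was 6.77 RPKM in tg/+ and 13.8 in tg/tg, without overlap. That difference, 0.95 (SE 0.24), lay in the same direction and was not called (adjusted p 0.0727, edgeR). Rasgrf1, an imprinted exchange factor, had log2 fold changes of 0.15 at E16.5 and -0.27 at P10.5, neither called.

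The 90 genes whose effect appeared as lower expression had a median log2 fold change of -0.92 at P10.5 and 0.20 at E16.5. The 6 with the largest interaction among those set apart by library were 4930590J08Rik, Gucy2c, Npc1l1, Ly6k, Nrcam and Spdya. Gucy2c, a guanylate cyclase receptor, had 27 reads in tg/+ and 0 in tg/tg at P10.5, at least 6.94-fold fewer, and 4930590J08Rik had 47 and 0, at least 12.1-fold fewer. Npc1l1, a sterol transporter, was at 1.92 and 2.33 RPKM in tg/+ and 5.38 and 4.34 in tg/tg at E16.5. That difference, 1.11 (SE 0.30), was not called (adjusted p 0.116, edgeR) but enters its interaction. At P10.5 Npc1l1 was lower in tg/tg, with a log2 fold change of -2.57 (SE 0.40). Levels were low there, with means of 0.374 RPKM in tg/+ and 0.0646 in tg/tg (109 and 14 reads). Nrcam, a neuronal adhesion molecule, was at 1.54, 1.91, 1.27 and 1.58 RPKM in tg/+ and 0.779, 0.411 and 0.516 in tg/tg at P10.5. Spdya, an activator of cyclin-dependent kinases needed in meiosis, went from 0.19 to -1.89, and Ly6k, a membrane-anchored germ cell protein, from 0.53 to -1.94. With 1 library left out, the interaction was lost in 5 of 11 fits for Spdya, 4 for 4930590J08Rik and 3 for Ly6k. Spdya overlaps Trmt61b, and reads may be shared.

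The lists of germ cell stages are given beside the share of all genes called, 4.72% higher and 4.02% lower at P10.5, 0.29% and 0.0828% at E16.5, and 0.893% and 0.822% in the interaction. Of 9 differentiating spermatogonia genes tested, 4 were lower and 1 higher at P10.5, 0 were called at E16.5, and the interaction was called lower for 3 and higher for 1. Stra8, the retinoic acid target that opens meiosis, was at 48.4, 43.6, 37.4 and 47.5 RPKM in tg/+ and 23.1, 23.0 and 20.3 in tg/tg at P10.5, and between 2.55 and 3.77 in all E16.5 libraries. Its log2 fold change was 0.09 and then -1.08 (SE 0.11), with an interaction of -1.17 and an adjusted p of 0.00302 (edgeR). Kit, the receptor of differentiating spermatogonia, went from 0.56 to -0.55, and Prdm9, which places meiotic recombination, from 0.11 to -1.40. Ccnd2, a D-type cyclin of the same list, went the other way, from -0.23 to 0.60. The interactions of Kit, Prdm9 and Ccnd2 were lost without tg/tg replicate 1 of E16.5.

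Of 23 early meiosis genes, 10 were lower and 0 higher at P10.5, 2 were higher at E16.5, and 5 had a lower interaction, where all genes gave 4.02% lower at P10.5, 0.29% higher at E16.5 and 0.822% lower in the interaction. The median log2 fold change was -0.36 at P10.5 and 0.05 at E16.5. Rec8, a meiotic cohesin, went from 0.13 to -1.20, and Mei1, needed for meiotic double-strand breaks, from 0.20 to -0.93. The interaction of Rec8 was lost without tg/tg replicate 2 of E16.5, and that of Mei1 without it or tg/+ replicate 2 of E16.5. Of 11 undifferentiated spermatogonia genes, 5 were higher at P10.5 and 3 in the interaction, and all 11 had a log2 fold change above 0 at P10.5. These 3 were Etv5, a factor of stem cell self-renewal (-0.46 and then 0.46), Gfra1, the GDNF co-receptor (-0.51 and 0.47), and Bcl6b (-0.01 and 0.90), whose interaction was lost in 7 of the 11 fits that left out 1 library. In bulk libraries, fewer cells of a type and less RNA per cell cannot be told apart. Sums of somatic cell markers are given beside these lists. The 11 Sertoli genes summed to 99.2 to 164.9 RPKM in tg/+ and 62.8 to 126.2 in tg/tg at P10.5, and 4 of the 11 were called lower. All 11 had a log2 fold change below 0 there, with a median of -0.753, and the sums overlapped through tg/tg replicate 2, at 126.2 where the other tg/tg libraries were at 62.8 and 66.9, while at E16.5 the sums were 43.1 to 59.0 and 49.1 to 53.1. The 7 Leydig genes summed to 3.62 to 4.18 in tg/+ and 2.66 to 3.19 in tg/tg at P10.5, with 0 called. The 10 peritubular and stromal genes summed to 12.9 to 14.7 in tg/+ and 14.9 to 18.0 in tg/tg at P10.5, without overlap, and 1 was called higher. Only 3 of the 10 had a log2 fold change above 0 there, with a median of -0.541, so this sum does not stand for most members. Macrophage genes summed to 6.32 to 8.68 in tg/+ and 11.2 to 11.4 in tg/tg at E16.5, without overlap, and to 4.17 to 5.02 and 3.42 to 5.58 at P10.5. The part of these cells in the results was not tested.

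The effect faded for 20 genes. Rspry1, a RING finger and SPRY domain protein, was at 6.92 and 9.07 RPKM in tg/+ and 18.4 and 17.9 in tg/tg at E16.5. At P10.5 the 4 tg/+ libraries lay between 13.7 and 17.0 and the tg/tg libraries at 12.4, 12.2 and 16.6, and the genotypes overlapped. Its log2 fold change was 1.10 (SE 0.15) and then -0.25 (SE 0.11), with an interaction of -1.36 and an adjusted p of 0.000132 (edgeR). Etl4, also named Skt, was at 3.3 and 3.58 in tg/+ and 14.6 and 8.71 in tg/tg at E16.5, and between 1.43 and 2.99 in all P10.5 libraries. Its interaction of -1.75 was lost without tg/tg replicate 1 of E16.5. Gtdc1, a glycosyltransferase-like gene, went from 0.90 to -0.25, Camk4, a calcium/calmodulin-dependent kinase, from 1.13 to -0.39, Cilp2, a cartilage matrix protein, from 1.48 to 0.03, and BC057079 from 1.11 to -0.11. The interaction of Cilp2 was lost in 5 of the 11 fits that left out 1 library, that of BC057079 without tg/tg replicate 1 of E16.5 and that of Camk4 without tg/tg replicate 2. At P10.5 the tg/tg libraries of Camk4 all lay below its tg/+ libraries in counts scaled for depth, without a call (adjusted p 0.188, edgeR).

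Of the 5 genes that were lower at E16.5 and faded, Cdkn1c had the highest RPKM at E16.5. Cdkn1c, an imprinted inhibitor of cyclin-dependent kinases, was at 29.6 and 41.5 RPKM in tg/+ and 20.3 and 19.8 in tg/tg at E16.5. At P10.5 it was at 8.14, 7.28, 7.71 and 6.81 in tg/+ and 8.66, 11.4 and 10.8 in tg/tg, the opposite order, which was not called (adjusted p 0.0595, edgeR). The interaction was 1.28 (SE 0.19). Tmem59l, Arhgef15, a guanine nucleotide exchange factor, and Noc3l, a ribosome assembly factor, went from -1.26, -0.93 and -0.67 to 0.12, 0.26 and 0.14. Their interactions were lost in 2, 1 and 1 of the 11 fits that left out 1 library. For Arhgef15 and Noc3l the tg/tg libraries all lay above the tg/+ libraries at P10.5 in counts scaled for depth, the opposite order to E16.5. These P10.5 differences were not called (adjusted p 0.199 and 0.43, edgeR).

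The effect reversed for 6 genes, of which 0 kept that class without tg/tg replicate 1 of E16.5, 1 without tg/tg replicate 2 and 2 without tg/+ replicate 2. Chaf1b, a subunit of the histone chaperone CAF-1, and 1600021P15Rik were lower in tg/tg at E16.5 and higher at P10.5. Chaf1b was at 1.07 and 1.82 RPKM in tg/+ and 0.616 and 0.394 in tg/tg at E16.5, and at 6.24, 5.17, 6.12 and 6.37 in tg/+ and 8.38, 9.21 and 9.38 in tg/tg at P10.5. Both groups were apart at each stage, in opposite directions, with log2 fold changes of -1.54 and 0.51. Akap9, a scaffold of the centrosome and Golgi, Tex11, an X-linked meiosis gene, Ankrd12, and Sycp1, a component of the synaptonemal complex, were higher at E16.5 and lower at P10.5. Akap9 was at 3.73 and 4.32 in tg/+ and 7.92 and 6.16 in tg/tg at E16.5, and at 20.5, 21.1, 20.4 and 19.8 in tg/+ and 16.9, 15.1 and 15.6 in tg/tg at P10.5. Its interaction was -1.18 with an adjusted p of 1.04e-05 (edgeR). The P10.5 effects were small, -0.41 for Tex11, -0.38 for Ankrd12 and -0.26 for Sycp1. With a log2 fold change of at least 1 also required, no gene reversed.

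**Figure D3:**
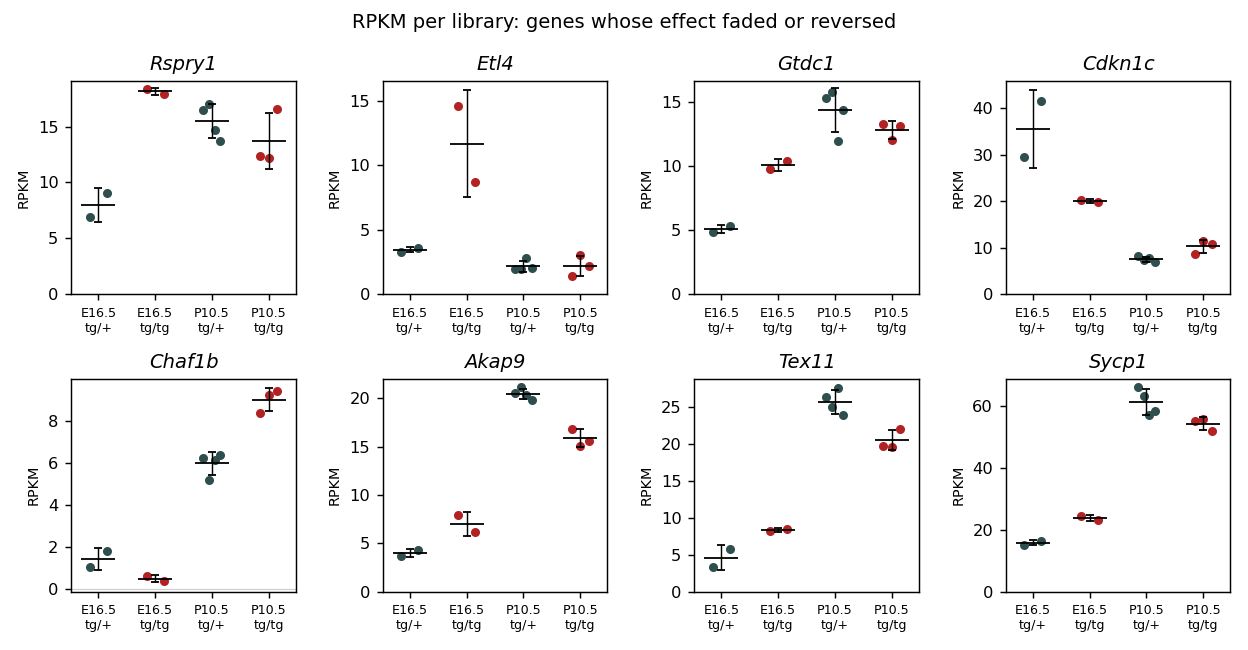
RPKM (y axis, from 0, scale differs between panels) of 8 genes in tg/+ (dark) and tg/tg (red) germ cells; points are libraries, bars the mean and SD. Rspry1, Etl4, Gtdc1 and Cdkn1c were apart at E16.5. Chaf1b, Akap9, Tex11 and Sycp1 were apart at both stages in opposite directions. So was Cdkn1c, whose P10.5 difference was not called.

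The remaining lists are read against the same shares of all genes, 0.893% called higher and 0.822% called lower in the interaction. At P10.5 these shares were 4.72% higher and 4.02% lower, and at E16.5 0.29% and 0.0828%. Imprinted genes had 3 higher interactions of 26 tested: Cdkn1c, Igf2, a fetal growth factor (-0.30 and then 0.45), and Mest (-0.46 and 0.75). Igf2 overlaps Igf2as and Mest overlaps Copg2, so these values may include reads of the other gene, and the interaction of Mest was lost without tg/tg replicate 2 of E16.5. At P10.5 3 imprinted genes were higher and 1 lower, and at E16.5 1 was lower. Genes beside regions that lose methylation in the mutant, a list the study drew from this mutant and so not independent evidence, had 5 of 17 higher at P10.5 and 2 (Neb and Cdkl4) in the interaction. Germline genes with methylated promoters in soma had 2 lower interactions of 23, Sycp1 and Dpep3, a testis dipeptidase (-0.08 and then -0.71), whose interaction was lost in 5 of the 11 fits that left out 1 library. In the list of the Morc family and H3K9 silencing Morc1 alone had a called interaction, with 3 of 19 higher and 3 lower at P10.5.

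At P10.5, where 4.72% of all genes were called higher and 4.02% lower, the other lists had calls but no interaction. These were germ cell identity (1 of 9 higher at P10.5), prospermatogonia and pluripotency (3 of 12 higher), the piRNA pathway (3 of 20 higher), DNA methylation (1 higher and 4 lower of 13, among them Tet1, Tet2 and Tet3), interferon and nucleic acid sensing (1 lower of 24 at each stage), p53 targets and apoptosis (2 higher and 2 lower of 19), the cell cycle (2 lower of 24), and pachytene and spermatid genes (1 higher of 12). Among other cell types, 0 of 4 macrophage genes were called at either stage, and 1 gene each had a called interaction in the peritubular and stromal (Pdgfra, 1.08), endothelial (Cdh5, 1.18) and blood (Hbb-b1, -5.04) lists. The calls of Pdgfra and Cdh5 were each lost in 6 of the 11 fits that left out 1 library. Blood markers summed to 6.85 and 23.2 RPKM in tg/+ and 36.0 to 40.8 in tg/tg at E16.5, and to 0.479 to 4.20 and 0.778 to 1.84 at P10.5, and Hbb-b1 lost its call in DESeq2, without either tg/tg library of E16.5 and with P10.5 replicates 1 and 2 only (adjusted p up to 0.358). Endothelial markers summed to 38.4 to 48.2 in tg/+ and 41.9 to 47.5 in tg/tg at E16.5 and to 4.38 to 6.93 and 6.90 to 7.30 at P10.5.

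**Figure D4:**
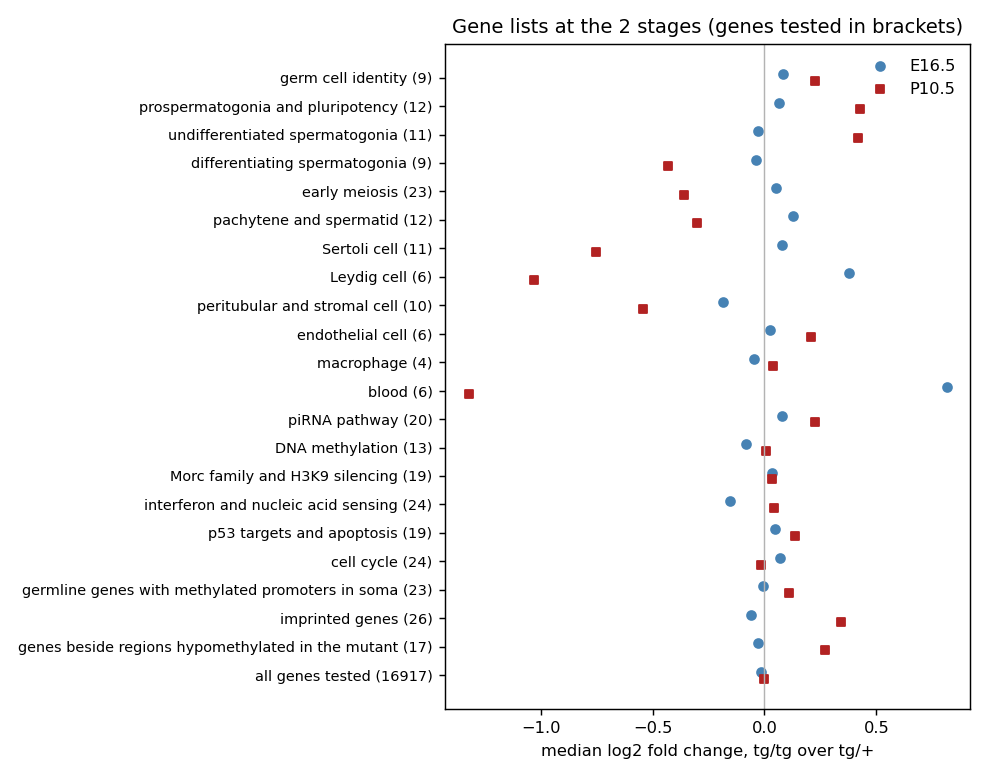
Median log2 fold change of tg/tg over tg/+ (x axis) at E16.5 (circles) and P10.5 (squares) for 21 gene lists and for all 16917 genes tested, with the number of genes tested in brackets. The spermatogonia, early meiosis and Sertoli lists lie near 0 at E16.5 and apart from it at P10.5 (the prospermatogonia list likewise, on the higher side). The peritubular list lies below 0 at both stages. The blood and Leydig lists, with 6 genes tested each, have medians far from 0 with 1 and 0 genes called at P10.5. Other small lists lie nearer 0, macrophage (4 tested) at -0.0472 and 0.0374 and endothelial (6 tested) at 0.0234 and 0.206.

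Libraries that did not enter the classes were then examined. In P10.5 whole testis, with 3 tg/tg and 3 control libraries of which 1 was wild type, 2326 of 15165 genes were called (15.3%). With 1 library left out this count ranged from 922 to 2352, and the class counts that follow were taken from the full fit only. Of the 111 genes that appeared higher 104 were tested there, and 42 were called higher and 0 lower, beside 6.08% of all genes called higher. Of the 90 that appeared lower 86 were tested, and 36 were called lower and 3 higher, beside 9.26% called lower. Marker sums moved with genotype in these libraries: germ cell identity genes summed to 359.8 to 367.9 RPKM in controls and 229.9 to 262.8 in tg/tg, early meiosis genes to 278.6 to 284.4 and 141.0 to 158.5, and Sertoli genes to 4739 to 4928 and 5151 to 5685. Their part in the whole-testis calls was not tested. Gm1698 and Poteg were higher in whole testis by 5.97 and 6.14 on the log2 scale, and Stra8 fell by 1.46. Col6a3 and Neb were not called there, with 0.27 (adjusted p 0.056, edgeR) and 0.74 (adjusted p 0.0965). Of the 15 that faded after being higher at E16.5, 6 were called lower and 0 higher.

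E18.5 and P2.5 germ cells, at intermediate stages, held 2698197 to 4007833 and 2413679 to 6880081 reads per library, and 6 and 7 genes were called there (0.0416% and 0.0486%, of which 1 at P2.5 was lower, 0.00694%). These counts moved with single libraries and with the tool, to 190 at E18.5 without tg/+ replicate 1, 290 there in DESeq2, 0 there without either tg/tg replicate and 0 at P2.5 without tg/+ replicate 2 or 3, and the time at which an effect began was not placed. The 11 genes that persisted higher had log2 fold changes above 0 in all 11 at E18.5, with a median of 2.51 beside 0.0164 over all genes. At P2.5 9 of the 11 were tested and 5 were above 0. Col6a3 was called higher at P2.5 (5.54, adjusted p 0.00418, edgeR) and had 5.23 at E18.5, not called. Poteg and Gm1698 had 8.31 (SE 2.3) and 8.32 (SE 2.1) at P2.5, and Gm1698 had 1.79 (SE 1.5) at E18.5, none of them called. Cd209c was called at P2.5 with 4.93, Clca4 at E18.5 with 2.51 and Cdkl4 at E18.5 with 3.44, calls that ended in the fits with 0 calls.

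Genes near Morc1 on chromosome 16 were examined because linked alleles travel with the insertion. The study kept the line by brother-sister matings in FVB/N. It describes a cross to a mixed background for the reporter sorts, E16.5 among them, and none for P10.5. Of 44 genes tested within 5 Mb (mm9), 0 were called at E16.5 and 6 at P10.5 (13.6%, beside 8.77% on other chromosomes), and 4 in the interaction (9.09%, beside 1.67%). Alcam, Cd200r2 and Myh15 were in the class that appeared. On the rest of the chromosome, of 476 genes tested, 5 were called at E16.5 (1.05%, beside 0.348% on other chromosomes), 33 at P10.5 (6.93%) and 11 in the interaction (2.31%), and Slc15a2, Parn, Chaf1b, 1600021P15Rik, BC100530 and Etv5 lie there. Whether linkage has a part in these effects was not tested.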

How the data were processed

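RNA from sorted germ cells, 1 mouse per library, was depleted of ribosomal RNA, made into libraries and sequenced by the authors. Per the labels and the study's methods, the authors trimmed reads, removed ribosomal reads, kept reads aligned to 1 place in mm9 (Bowtie) and counted them per gene with HTSeq at its default settings, which count by strand. The counts and the RPKM values derived from them were deposited per library. Whether the library kit kept strand and the tool versions are not given in the sources used here, so overlapping genes may share reads.

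The counts were tested with edgeR 4.0.16 (R 4.3.3; TMM scaling, filterByExpr, quasi-likelihood F test, 4 groups in 1 fit, no covariate), with contrasts for each stage and their difference. Calls needed a Benjamini-Hochberg adjusted p under 0.05. DESeq2 1.42.0, other scaling, no filter, left-out libraries, a replicate block, other sets of libraries and a fold threshold were alternatives. RPKM were used for levels only. Exact intervals (95%) and floors (3 counts over a group) cover counting error only.

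Named genes were Morc1, Rasgrf1, Neb, Tmc2 and Cdkl4, and up to 6 per class and direction by interaction (for genes that persisted, by the smaller effect). The genes taken by class had libraries apart and a mean of at least 1 RPKM in a group. Up to 4 genes per list (21 lists) were added by adjusted p, only where their interaction was called. Other genes (such as Msl1 and Rest) were named after their values were seen. The comparison, the classes and the lists were chosen with earlier results of these data known.

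Same-numbered libraries did not deviate together (correlations from -0.0475 to 0.0318), so replicate numbers were not used as pairs. Within groups, no 2 libraries agreed within sampling noise; pairs across groups were not compared. Counts were simulated with a log2 change of 1 or 2, each in 100 genes above a minimum mean count. With the change at P10.5 alone, the interaction recovered 45% and 76% of them and called 12 unchanged genes (16507 genes tested). With the change at E16.5 alone it recovered 38% and 81% and called 8 unchanged genes (16468 genes). Recovery among genes with fewer reads was not measured.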

Additional observations from a re-analysis of the deposited data

Results flagged for a closer look

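The genotype effect differed between E16.5 and P10.5 by the interaction in edgeR for 50 of the 55 named genes. Most named genes were chosen through a called interaction, so this count follows largely from the choice. Over all 16917 genes tested the interaction was called for 290 (1.71%). The log2 interaction (P10.5 minus E16.5) is given for each of the 50. Where the effect appeared higher it was Neb 1.53, Cdkl4 1.75, Poteg 10.17, BC100530 8.62, Gm1698 7.96, Cd200r2 6.84, Clec2g 6.46, Col6a3 5.57, Etv5 0.92, Gfra1 0.98, Bcl6b 0.91, Ccnd2 0.83, Pdgfra 1.08, Cdh5 1.18, Igf2 0.75 and Mest 1.21. Where the effect appeared lower it was 4930590J08Rik -6.78, Gucy2c -5.78, Npc1l1 -3.68, Ly6k -2.46, Nrcam -2.11, Spdya -2.08, Kit -1.11, Stra8 -1.17, Prdm9 -1.51, Rec8 -1.33, Mei1 -1.13, Hbb-b1 -5.04 and Dpep3 -0.63. Where the effect faded from higher it was Etl4 -1.75, Camk4 -1.52, Cilp2 -1.45, Rspry1 -1.36, BC057079 -1.21 and Gtdc1 -1.15. Where the effect faded from lower it was Tmem59l 1.38, Cdkn1c 1.28, Arhgef15 1.19 and Noc3l 0.80. Where the effect persisted higher it was Gdpd3 2.23, Slc15a2 2.06, Cd209c 1.92 and Clca4 6.24. Where the effect persisted lower it was Morc1 1.21. Where the effect turned from lower to higher it was Chaf1b 2.05 and 1600021P15Rik 1.56. Where the effect turned from higher to lower it was Tex11 -1.20, Akap9 -1.18, Ankrd12 -0.88 and Sycp1 -0.76. For Poteg, BC100530, Cd200r2, Clca4, 4930590J08Rik and Gucy2c no read fell in 1 of the genotypes at P10.5. The size of their interaction is therefore not fixed by the counts, and the P10.5 folds given above for them are lower bounds. In 4 of the 55 genes 1 of the 4 P10.5 tg/+ libraries stood apart from the other 3 by Dixon's test, where chance gives about 1 group in 20. Replicate 3 was high for Clec2g (0.0753 RPKM) and Etl4 (2.79), replicate 1 was high for BC057079 (4.58), and replicate 4 was low for Gfra1 (15.5).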

How the results depend on the processing

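All 55 named interactions kept their direction in every alternative that gave a value. Called were, for the interaction, E16.5, P10.5, and the classes that appeared, faded, persisted and reversed: 290, 63, 1478, 201, 20, 13 and 6 in edgeR. DESeq2 called 437 in the interaction and 143 at E16.5, with 58 genes that faded, 23 that persisted, 12 that reversed and 375 that appeared, persisted or faded together (234 in edgeR). Without a filter these were 507, 164, 356 that appeared, 56, 26, 17 and 438 together. With P10.5 replicates 1 and 2 alone the interaction gave 133, P10.5 470, appeared 94, reversed 3 and together 118. With all 20 sorted libraries in 1 fit they were 9, 8 at E16.5, 125 at P10.5, 7 that appeared, 1 that faded, 1 that persisted, 0 that reversed and 9 together. With a log2 fold change of at least 1 they were 164, 26, 325, 77, 10, 6, 0 and 93.

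Leaving out 1 of the 11 libraries, the interaction ranged from 130 to 312, E16.5 from 16 to 73, P10.5 from 993 to 1590, appeared from 95 to 232, faded from 8 to 26, persisted from 6 to 17, reversed from 0 to 9, and the 3 classes together from 120 to 273. Every count that moved by over 1.5 times did so without a tg/tg library of E16.5, except that 2 genes reversed without tg/+ replicate 2 of E16.5. With replicate number as a replicate block the interaction gave 251, E16.5 76 and P10.5 1084, and 150 of the 201 genes that appeared remained in that class.

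At E18.5 6 genes were called, 83 without a filter and 290 in DESeq2, and 0 to 190 with a library left out. At P2.5 7 were called, 27 without a filter and 21 in DESeq2, and 0 to 70 with a library left out. The counts at E18.5 were 190 and 59 without tg/+ replicates 1 and 2 and 0 without either tg/tg replicate. At P2.5 they were 1, 0 and 0 without tg/+ replicates 1, 2 and 3 and 70 without tg/tg replicate 2. In whole testis left-out libraries gave 922 (without tg/tg replicate 3) to 2352, with 1533 without tg/tg replicate 2 and 1247 without tg/+ replicate 3. E16.5 rests on 2 libraries per genotype, and the effects of genes with few reads are loosely fixed.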
